A study of Mus musculus with 18 samples.

Results

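Fabp7, Glul, Slc1a3 and Gja1 are 4 genes commonly used to recognise satellite glia, the flat glial cells that wrap the cell bodies of sensory neurons. They were followed in cultured mouse dorsal root ganglia while Schwann cells formed myelin. The 4 were found through the transcript accession that the array gives for each probe, and each was measured by 1 probe. They stand among 14542 genes with a symbol, and 22854 features in all, that passed the filter on dim probes. Total RNA came from whole explants of ganglia of C57BL/6J embryos at E13.5, which had spent 12 days in growth medium and were labelled as control. The groups were explants taken before myelination medium (day 0), after 10 days in it (day 10, early myelination) and after 22 days (day 22, many mature sheaths), with 6 one-colour arrays each. Each day had 3 batches of ganglia, taken from separate embryo pools at different times, and each batch gave 2 arrays called technical in the labels. A replicate number in the labels stands for a batch shared between days. The main fits did not use this pairing, and fits with the replicate number as a block are given beside some results. The labels name no transgene or drug in any group. Time in culture and stage of myelination cannot be told apart.

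Satellite glia take up the glutamate that sensory neurons release and turn it into glutamine. They are coupled to each other by gap junctions, and they share with radial glia and astrocytes a carrier of long-chain fatty acids. Slc1a3 encodes the glutamate transporter GLAST (EAAT1). Glul encodes glutamine synthetase, which makes glutamine from glutamate and ammonia. Gja1 encodes the connexin Cx43, a gap junction subunit. Fabp7 encodes the brain fatty acid binding protein. None of the 4 belongs to satellite glia alone. Fabp7 is also found in Schwann cell precursors, Gja1 in fibroblasts, and Glul and Slc1a3 in several other cell types. In RNA of whole explants, fewer cells of a type and less RNA per cell cannot be told apart.

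The stretches just upstream of the 4 genes are shown because the genes share a cell type label and yet did not follow the same course. RefSeq promoter windows of 250 bases before and 50 after the start site were found for all 4 members on GRCm38.p6. Each line gives the 250 bases before the start, in the direction of transcription, and capitals mark motif matches. Fabp7 lies on the plus strand with this stretch at chr10:57784673-57784922, Glul on the plus strand at chr1:153899679-153899928, Slc1a3 on the minus strand at chr15:8710808-8711057, and Gja1 on the plus strand at chr10:56377050-56377299.
Fabp7: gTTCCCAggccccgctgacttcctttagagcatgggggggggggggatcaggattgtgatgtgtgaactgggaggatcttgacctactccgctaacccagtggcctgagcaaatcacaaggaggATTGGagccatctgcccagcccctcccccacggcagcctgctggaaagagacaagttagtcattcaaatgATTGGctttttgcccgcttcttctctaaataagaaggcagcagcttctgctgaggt
Glul: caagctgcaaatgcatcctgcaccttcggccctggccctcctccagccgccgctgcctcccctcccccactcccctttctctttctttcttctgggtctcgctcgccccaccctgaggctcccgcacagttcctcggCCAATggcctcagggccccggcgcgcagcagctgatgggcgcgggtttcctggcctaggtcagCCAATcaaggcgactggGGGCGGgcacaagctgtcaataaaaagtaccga
Slc1a3: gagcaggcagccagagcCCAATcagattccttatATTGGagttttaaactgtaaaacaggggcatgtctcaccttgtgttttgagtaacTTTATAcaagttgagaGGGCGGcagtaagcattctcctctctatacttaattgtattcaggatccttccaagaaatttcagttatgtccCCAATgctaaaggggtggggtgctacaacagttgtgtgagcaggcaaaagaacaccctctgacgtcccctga
Gja1: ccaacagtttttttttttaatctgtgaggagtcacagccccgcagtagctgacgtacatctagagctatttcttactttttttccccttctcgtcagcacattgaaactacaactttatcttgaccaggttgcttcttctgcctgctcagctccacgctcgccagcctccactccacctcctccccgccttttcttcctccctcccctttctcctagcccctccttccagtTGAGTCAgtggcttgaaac

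The 7 motifs searched, on both strands, were TATAAA (the TATA box), CCAAT (the box of NF-Y), GGGCGG (the box of Sp1), TGGGAA (the core read by the Notch partner RBPJ), ACAAAG (a SOX core), ATTTGCAT (the POU octamer) and TGANTCA (the AP-1 site), and no marked match overlapped another. CCAAT stood 2 times in the Fabp7 window, 2 times in that of Glul and 3 times in that of Slc1a3. It was in 37.4% of the 32851 promoter windows of the same length. The Gja1 window held none of the motifs but TGANTCA, at position -19 from the start, a motif found in 7.81% of all windows. GGGCGG stood in the windows of Glul, at -33, and Slc1a3, at -145, and in 35.7% of all. The reverse of TGGGAA began at -249 upstream of Fabp7 and was found in 25.6% of all windows. The reverse of TATAAA stood at -161 in the Slc1a3 window and in 13.6% of all. ACAAAG, in 18.7% of all windows, and ATTTGCAT, in 1.74%, stood in none of the 4. The windows were 54, 64.3, 45.3 and 47.7% G and C in Fabp7, Glul, Slc1a3 and Gja1, and the median of all windows was 52.7%. A match is a stretch of letters, and binding was not measured.

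Besides its controls an array carried 59305 spots, and the scanner software marked 54.8 to 61.5% of these as well above background. Precision is limited by the number of arrays. For 12 of the 18 arrays, the authors' value table places the same values under another sample of the same day, so the batch of those arrays is in doubt but not their day. Each difference was therefore fitted with the batches under which the array files were deposited (filed batches) and again with those of the authors' table (table batches). Where a pair of adjusted p values is given, the first is from filed and the second from table batches. The words rose and fell are used here of a gene only when it passed an adjusted p of 0.05 both ways. With filed batches, 0 of 22854 features (0%) differed between batches within days by limma's F test (1781 at an unadjusted p under 0.05), and 1985 (8.69%) did with table batches (7366 unadjusted). The consensus correlation of the 2 arrays of a batch was -0.0189 with filed and 0.359 with table batches. Filed pairs were thus, on the whole, no more alike than other arrays of a day, while table pairs were more alike. Spreads from filed batches, and with them the standard errors printed after ±, may therefore be too small. The arrays lay on 3 slides, of which slides 1 and 2 each held every day. A level is the log2 intensity minus that of the array's own 75th percentile, so that 0 is the level of that percentile. A difference is given on the log2 scale ± its standard error in limma's fit with filed batches (9 batch values, 3 per day), with Benjamini-Hochberg adjusted p. With table batches the standard error of a difference between 2 days was 0.35 for Fabp7, 0.19 for Glul, 0.77 for Slc1a3 and 0.31 for Gja1. Of the 16 sensory neuron genes checked (such as Rbfox3 and Tac1) and the 12 Schwann myelin genes (such as Ncmap and Drp2) all passed the filter.

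Fabp7 fell and Glul rose by day 10, and by day 22 Slc1a3 and Gja1 had risen as well, so that the 4 genes did not move as a group. With both sets of batches, 1 of the 4 members rose and 1 fell between day 0 and day 10, beside 5.75% of all features that rose and 7.72% that fell. With filed batches alone 2 were higher and 1 lower, beside 11.4 and 17.8%. Between day 0 and day 22, 3 rose and 1 fell, beside 12.6 and 18.6% of all features (17.1 and 27.3% with filed batches alone). Between day 10 and day 22 none of the 4 passed in limma's fit, with either set of batches, and none had an unadjusted p under 0.05. In that interval 1.94% of all features passed both ways, 9.63% with filed and 2% with table batches. An unadjusted p under 0.05 in limma's fit was seen for 26.6% of all features with filed and 18.3% with table batches. With so many genes moving over the whole course, the count of members is described here and no more is read from it.

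**Figure D1:**
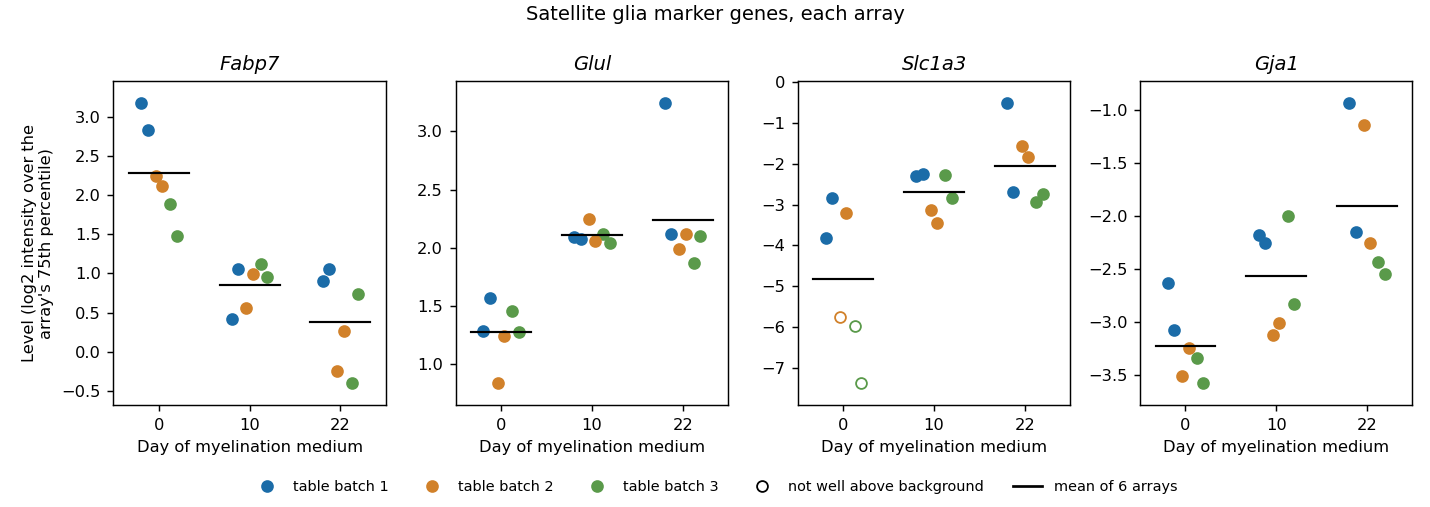
Log2 level of each member (y axes, relative to the array's 75th percentile, a separate scale per gene) on each of the 6 arrays of days 0, 10 and 22 (x axes). Colours mark table batches, open circles are arrays on which the probe was not well above background, and lines are means of 6 arrays. Fabp7 lay lower and Glul higher on all arrays of days 10 and 22 than on any array of day 0, and 3 of the 6 day 0 arrays did not detect Slc1a3 well above background.

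Fabp7, the fatty acid carrier, had its highest levels before myelination medium. On day 0 its level ranged from 1.48 to 3.17 with a median of 2.18. It ranged from 0.42 to 1.12 with a median of 0.97 on day 10, and from -0.4 to 1.05 with a median of 0.5 on day 22. As raw intensities, the medians were 2998.1, 1217.8 and 872.9 in the order of the days. Every array of day 10 and of day 22 lay below every array of day 0, whereas days 10 and 22 overlapped. Arrays fully apart and lower were seen for 9.17% of all features on day 10 and 13.3% on day 22, each against day 0.

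The batch means of Fabp7 on day 10 were 0.49, 1.09 and 0.97, against 2.7, 2.36 and 1.8 on day 0, in the order of filed batches 1 to 3. The difference was -1.44 ± 0.23, a fold of 0.37 (limma adjusted p = 0.00344, and 0.0342 with table batches). On day 22 the batch means were 0.32, 0.32 and 0.5, and the difference from day 0 was -1.91 ± 0.23, a fold of 0.267 (limma adjusted p = 0.000409, and 0.00521 with table batches). Between day 10 and day 22 the difference was -0.47 ± 0.23 and did not pass (limma adjusted p = 0.245 and 0.531). Its 95% interval was -1.01 to 0.07, or -1.28 to 0.34 with table batches. The day 10 call is the less firm, since it was lost in 4 of 9 fits that left out a table batch, with differences of -1.38 to -1.53. Within slide 1 alone the day 10 difference was -1.49 and within slide 2 it was -1.14, and within slides the day 22 differences were -1.98 and -1.86. None of these 4 passed with the fewer arrays (limma adjusted p = 0.102, 0.21, 0.0608 and 0.0509).

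Glul, glutamine synthetase, took the opposite course. Its level ranged from 0.84 to 1.57 with a median of 1.29 on day 0, from 2.04 to 2.25 with a median of 2.08 on day 10, and from 1.87 to 3.24 with a median of 2.11 on day 22. The median intensities were 1622.4, 2640.8 and 2813.8. All arrays of days 10 and 22 lay above all arrays of day 0, which was so for 7.92 and 9.57% of all features. The 6 arrays of day 10 were the most alike, within 0.21 log2 units.

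Against day 0, Glul was 0.83 ± 0.17 higher on day 10, a fold of 1.77 (limma adjusted p = 0.00932, and 0.0283 with table batches). On day 22 it was 0.96 ± 0.17 higher than on day 0, a fold of 1.95 (limma adjusted p = 0.00259 and 0.00699). The batch means were 1.06, 1.52 and 1.26 on day 0, 2.17, 2.1 and 2.05 on day 10, and 2.62, 2 and 2.11 on day 22. From day 10 to day 22 the difference was 0.14 ± 0.17 (limma adjusted p = 0.676 and 0.762), with a 95% interval of -0.26 to 0.53, or -0.3 to 0.57. One array of day 22, array 1 of batch 1, stood at 3.24, where the next highest was at 2.12. Without that array the day 22 difference was 0.75 from day 0 (limma adjusted p = 0.00108) and -0.07 from day 10 (adjusted p = 0.73). The day 10 call was lost in 5 of the 9 fits without a table batch and without array 2 of day 22 batch 1, with differences of 0.71 to 0.87.

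Slc1a3, the glutamate transporter, was dim on this array and is the least precisely measured of the 4. It was well above background on 3 of 6 arrays of day 0, and on 6 of 6 on each later day. Slc1a3 thus passed the filter through days 10 and 22 and not through day 0, which favours a rise. Its level ranged from -7.37 to -2.84 with a median of -4.78 on day 0, from -3.45 to -2.25 with a median of -2.56 on day 10, and from -2.94 to -0.52 with a median of -2.27 on day 22. The intensities ranged from 3.8 to 100.1 on day 0, from 59.3 to 152.9 on day 10 and from 84.6 to 471.5 on day 22. The 3 days overlapped, since the brightest array of day 0 was brighter than the dimmest arrays of days 10 and 22.

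On day 22, Slc1a3 was 2.77 ± 0.45 higher than on day 0, a fold of 6.84 (limma adjusted p = 0.00151, and 0.0268 with table batches). The size of this fold rests on the dim arrays of day 0. With values below background raised to the lowest signal well above it, the difference was 2.3 (adjusted p = 0.00263 and 0.0167), and with the normexp background it was 1.3 (adjusted p = 0.00526). Within slide 1 it was 4.34 and within slide 2 it was 2.78. The call was lost without table batch 2 of day 0 (2.95), table batch 1 of day 22 (2.55) or table batch 2 of day 22 (2.6). On day 10 it was 2.12 ± 0.45 above day 0 and passed with filed batches (limma adjusted p = 0.00954) but not with table batches (adjusted p = 0.102). The 95% intervals of that difference were 1.1 to 3.15 and 0.35 to 3.89. Without table batch 3 of day 0, which holds the dimmest array, it was 1.2, and without that array alone (array 2 of filed batch 3) it was 1.43, neither past the threshold. Without array 1 of day 0 batch 2 it was 1.6 and did not pass either. The batch means of day 0 were -4.78, -4.41 and -5.28 by filed batches but -3.33, -4.47 and -6.68 by table batches, so that their SD was 0.437 by the first and 1.7 by the second. From day 10 to day 22 the difference was 0.65 ± 0.45 (limma adjusted p = 0.406 and 0.712), with a 95% interval of -0.38 to 1.67, or -1.12 to 2.42.

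Gja1, the connexin Cx43, was printed in 10 spots per array, and the median SD of its spots within an array was 0.107 log2 units. Its level ranged from -3.58 to -2.64 with a median of -3.3 on day 0, from -3.13 to -2 with a median of -2.54 on day 10, and from -2.55 to -0.94 with a median of -2.2 on day 22. The median intensities were 66, 105.8 and 141.4, and the probe was well above background on every array. Day 22 lay above day 0 on all arrays, and day 10 overlapped both.

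The difference of Gja1 between day 22 and day 0 was 1.32 ± 0.36, a fold of 2.5 (limma adjusted p = 0.0171, and 0.014 with table batches). It was 0.66 ± 0.36 on day 10 against day 0 (limma adjusted p = 0.204 and 0.184) and 0.66 ± 0.36 on day 22 against day 10 (adjusted p = 0.284 and 0.307), neither of which passed. The 95% interval was -0.16 to 1.48 in each, or -0.05 to 1.37 with table batches. With the slide as a block in a limma fit to all 18 arrays, both passed (0.64, adjusted p = 0.0462, and 0.78, adjusted p = 0.03). In that fit the consensus correlation of the 2 arrays of a filed batch was -0.196. In the 18-array fit without the slide, neither passed (0.66 each, adjusted p = 0.0826 and 0.132). The batch means were -3.08, -3.21 and -3.42 on day 0, -2.66, -2.13 and -2.92 on day 10, and -1.04, -2.3 and -2.4 on day 22. The call between day 22 and day 0 was lost without batch 3 of day 0, by filed batches (1.23) and by table batches (1.21). It was 2.17 within slide 1 and 1.05 within slide 2, and with the normexp background it was 0.88.

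**Figure D2:**
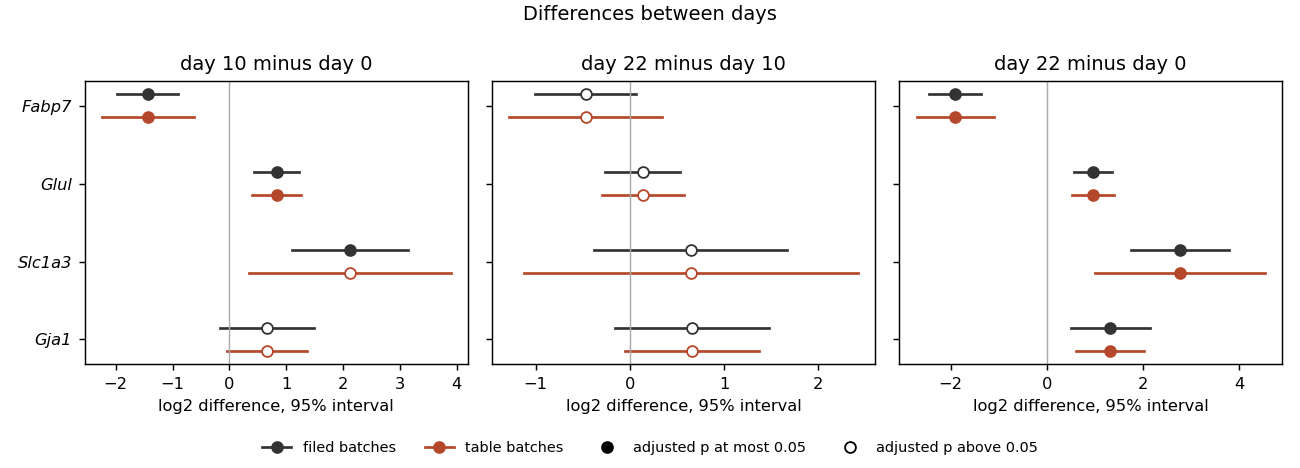
Log2 differences between days (x axes) with 95% intervals for the 4 members, from limma fits to 9 batch values with filed batches (dark) or table batches (red). Filled points have an adjusted p of at most 0.05. The intervals of Fabp7 lie below 0 and those of Glul above it for days 10 and 22 against day 0, and all intervals for day 22 against day 10 include 0.

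Whether the second interval differed from the first was tested as a contrast of its own. It was 0.97 ± 0.41 for Fabp7, -0.69 ± 0.3 for Glul, -1.48 ± 0.77 for Slc1a3 and 0 ± 0.62 for Gja1, and none passed with filed batches (limma adjusted p = 0.226, 0.241, 0.327 and 0.999), where 3.57% of all features did. At an unadjusted p under 0.05 there were 2 of the 4, Fabp7 and Glul, where 20.5% of all features (4696) were. With table batches, 0 of 22854 features (0%) passed in limma's fit, and 2743 (12%) had an unadjusted p under 0.05, none of them a member. Most of the measured change of Fabp7, Glul and Slc1a3 lay between day 0 and day 10, but an earlier course was not told apart from an even one.

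The spread between the 2 arrays of a pair differed between the members. The median difference within the 9 filed pairs was 0.64 log2 units for Fabp7, 0.11 for Glul, 0.91 for Slc1a3 and 0.29 for Gja1, and within table pairs it was 0.4, 0.19, 0.56 and 0.26. No member differed between batches within days past the threshold, in limma's F test with filed batches (adjusted p = 1, 0.983, 1 and 0.314 in the same order of genes) or with table batches (0.098, 0.368, 0.118 and 0.26).

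Over the 18 arrays Fabp7 correlated below 0 with each of the other 3, at r = -0.6 with Glul, -0.46 with Slc1a3 and -0.52 with Gja1. The other 3 correlated with each other at 0.75 to 0.81. After the mean of each day was taken out, every pair correlated above 0, from 0.27 for Fabp7 and Gja1 to 0.64 for Slc1a3 and Gja1. These are descriptions over 18 arrays, which share batches, slides and the scaling of each array. So the opposite direction of Fabp7 was a difference between days. With the days pooled, arrays higher in one gene within a day tended to be higher in the others. For Glul this rests in part on 1 array of day 22, with deviations of 1.004 in Glul, 1.532 in Slc1a3 and 0.974 in Gja1. The day 10 array highest in Glul (0.15) lay below the day's mean in Fabp7 (-0.288), Slc1a3 (-0.42) and Gja1 (-0.562).

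Markers of other cells moved between the same days. By day 22, 12.6% of all features rose and 18.6% fell with both sets of batches, which stands beside each count below. The mean level of 13 macrophage genes (such as Lyz2, lysozyme, and Ctss, a lysosomal protease) ranged from -0.74 to 0.98 on day 0, from 1.14 to 2.52 on day 10 and from 2.33 to 4.43 on day 22, and 12 of 13 rose by day 22 with both sets of batches. Lyz2 was 5.15 ± 0.38, Fcgr3 3.95 ± 0.36 and Ctss 3.92 ± 0.48 higher on day 22 than on day 0. Ptprc, counted among the 12 and named after its values were seen, passed the filter through days 10 and 22 and not day 0. By day 10, 2 of 13 rose, where 5.75% of all features did, and 12 were called higher with the replicate number as a block. Between days 10 and 22, 0 of 13 rose, and 9 were called higher under that block. The share of all features under the block was not counted. The mean of 10 fibroblast genes ranged from 3.11 to 4.76, from 4.09 to 4.7 and from 4.12 to 5.3 in the order of the days. Of these, 2 rose and 3 fell by day 22, and Lum, a matrix proteoglycan, was 2.72 ± 0.34 higher. Those that fell, named after their values were seen, were the collagen genes Col3a1 (-1.02 ± 0.14) and Col1a1 (-0.65 ± 0.09) and the matrix protein gene Postn (-0.73 ± 0.15). Pdgfra (1.62 ± 0.4) and Dcn (1.23 ± 0.23) passed with filed batches but not with table batches. With the replicate number as a block, Dcn also passed with table batches (limma adjusted p = 0.0409), and Pdgfra did not (0.0528). All 11 cell cycle genes tested fell by day 22, with a median difference of -3.13, and Kif11, a spindle motor, stood at -3.51 ± 0.21, Top2a at -3.4 ± 0.3 and Mki67 at -3.25 ± 0.29. The mean of 12 Schwann myelin genes ranged from 3.3 to 3.83 on day 0, from 4.69 to 5.22 on day 10 and from 3.77 to 5.22 on day 22, and 6 of the 12 rose by day 22 and none had a lower level at an unadjusted p under 0.05 in limma's fit. Ncmap, a protein of noncompact myelin, was 5.06 ± 0.41, Drp2 3.27 ± 0.27 and Cldn19 2.23 ± 0.3 higher. Of 16 sensory neuron genes 3 fell by day 22 and none was higher at an unadjusted p under 0.05. Rbfox3, a neuronal splicing factor, was at -1.14 ± 0.29, while Tac1 (-0.98 ± 0.18) passed with filed batches but not with table batches (adjusted p = 0.0899). With the replicate number as a block it passed with both (0.00526 and 0.0113 in limma's fit), as did Nefm, a neurofilament gene (-0.79 ± 0.31), so that 5 of the 16 passed as lower under that block. Of 10 endothelial genes 8 passed the filter, of which 2 rose and 1 fell. Those that rose were Esam, at 2.39 ± 0.24, and Vwf, at 1.94 ± 0.21, and the one that fell, named after its value was seen, was Pecam1, at -0.3 ± 0.08 (adjusted p = 0.0192 and 0.0292). Esam was well above background on 5 of 6 arrays of day 0 and passed the filter through days 10 and 22, which favours a rise. Cldn5, a tight junction gene, passed the filter through day 0 alone. It was well above background on 6, 1 and 0 of 6 arrays of days 0, 10 and 22, so its later levels are bounds. It passed with filed batches, and with table batches only under the replicate block (adjusted p = 0.0531 without and 0.0358 with it). Cldn5 is therefore not counted among the genes that fell. The part of any of these cells in the change of the 4 members was not tested.

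Within days, over all 18 arrays, the 4 members correlated above 0 with some lists and below 0 with others. The 48 relations computed set the 4 members, as deviations from the day mean, against the mean deviation of each of 12 lists. All 4 correlated above 0 with the fibroblast (0.45 to 0.83), macrophage (0.36 to 0.61), connexin (0.14 to 0.54), fatty acid binding protein (0.28 to 0.49) and endothelial genes (0.12 to 0.51). All 4 correlated below 0 with the Schwann myelin (-0.83 to -0.31), immature Schwann (-0.81 to -0.42) and glutamate handling genes (-0.58 to -0.06), and also with the other satellite glia genes (-0.75 to -0.24). With the immature Schwann genes, r was -0.81 for Gja1, -0.72 for Glul, -0.63 for Slc1a3 and -0.42 for Fabp7. With the other satellite glia genes, it was -0.75 for Glul, -0.42 for Gja1, -0.36 for Slc1a3 and -0.24 for Fabp7. Both sets of relations rest in part on the day 22 array with Glul at 3.24. On that array the immature Schwann mean (2.52) and the other satellite glia mean (1.78) were the lowest of the day. The neuron, central glia and cell cycle lists had members on both sides of 0, from -0.36 to 0.42. With the fibroblast genes, r was 0.83 for Slc1a3 (Spearman 0.82, and 0.72 without the 2 arrays farthest in the list), 0.67 for Fabp7 (0.61 and 0.55), 0.62 for Gja1 (0.69 and 0.65) and 0.45 for Glul (0.46 and 0.49). The relation of Slc1a3 was 0.97 on day 0, 0.72 on day 10 and 0.54 on day 22, over 6 arrays each, and 0.78 in all with its dim values raised to background. On the 3 days it was 0.78, 0.48 and 0.59 for Fabp7, 0.79, 0.56 and 0.71 for Gja1, and 0.41, -0.37 and 0.63 for Glul, which went the other way on day 10. The macrophage relation was not shared by all days. On day 10 it was -0.52 for Fabp7, -0.19 for Gja1, 0.09 for Slc1a3 and 0.46 for Glul. On days 0 and 22 it was 0.51 or higher, except for Glul on day 0 (-0.13). With the Schwann myelin genes, r was -0.83 for Glul (Spearman -0.66, and -0.59 without the 2 farthest arrays), -0.69 for Gja1, -0.5 for Slc1a3 and -0.31 for Fabp7. For Glul that relation rests in part on the array at 3.24, which also had the lowest myelin level of its day, 3.77. On day 10 the myelin relation was near 0 for Glul (-0.05) and Gja1 (-0.17) and above 0 for Fabp7 (0.26), and it was -0.49 for Slc1a3. Arrays of a day share batches, and RNA of more than 1 cell type can rise on the same array, so these values are given as a description.

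**Figure D3:**
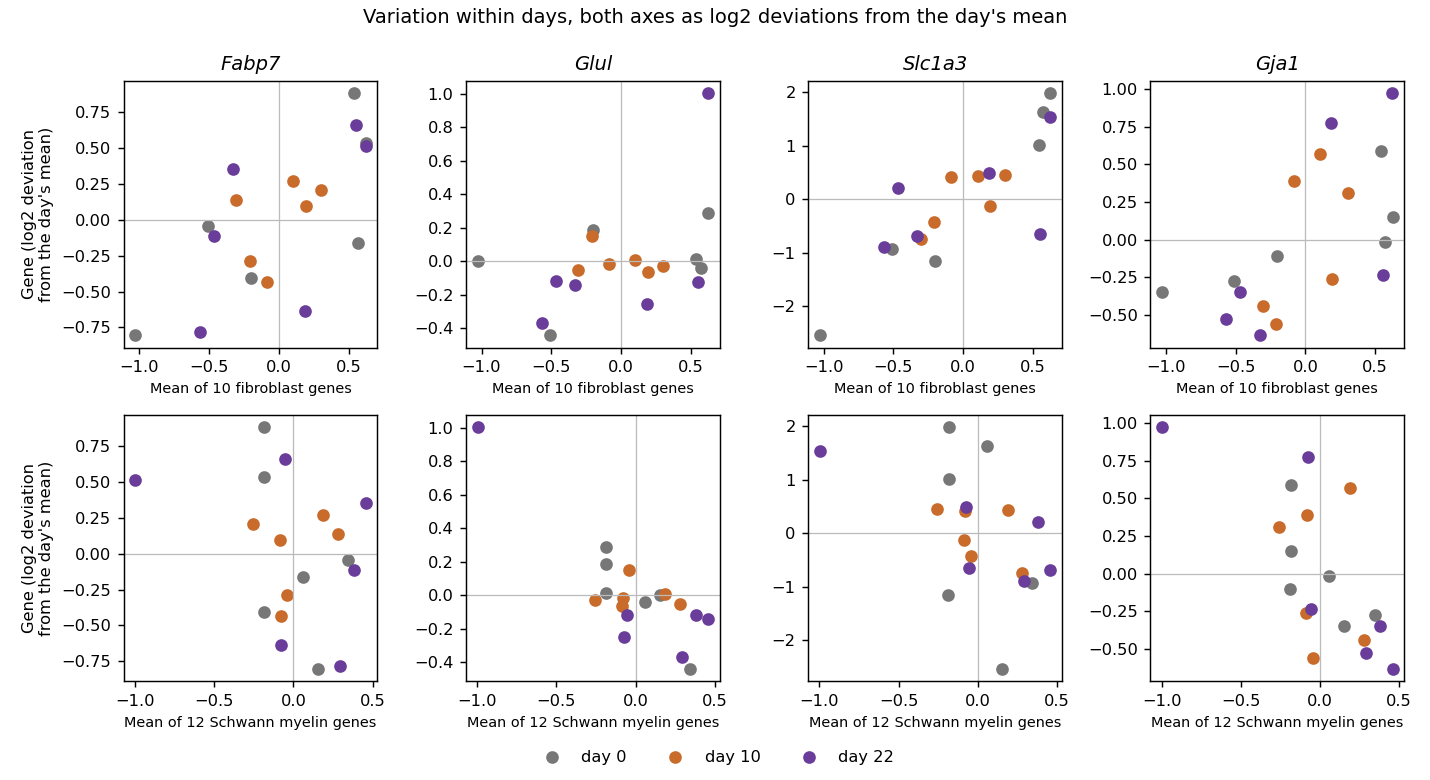
Deviation of each member from its day's mean (y axes, log2) against the mean deviation of 10 fibroblast genes (upper row) or 12 Schwann myelin genes (lower row), one point per array and 6 per day, coloured by day. Slc1a3 follows the fibroblast genes (r = 0.83 over 18 arrays), and the array of day 22 with the highest Glul is the one farthest left in the lower row.

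The other satellite glia genes did not share one direction. Of 20 genes with reported expression in these cells, all were tested. By day 22, 4 rose and 3 fell with both sets of batches, beside 12.6 and 18.6% of all features. With filed batches alone it was 7 and 5, beside 17.1 and 27.3%. Their median difference was 0.05, where that of all features was -0.08. Ptprz1, a receptor phosphatase of the cell surface, was lower by 2.44 on the log2 scale (-2.44 ± 0.18, limma adjusted p = 4.28e-05 and 0.000371). Bcan, the proteoglycan brevican, differed by -2.01 ± 0.24 (adjusted p = 0.000351 and 0.000263), and Ednrb, an endothelin receptor, by -1.46 ± 0.14 (0.000108 and 0.00715). The 4 that rose, named after their values were seen, were P2rx7 (0.85 ± 0.09), Atp1b2 (0.77 ± 0.16), Fbln2 (0.72 ± 0.18) and Kcnn3 (0.51 ± 0.17). Kcnj10, the inward rectifier potassium channel for which satellite glia are well known, was 0.93 ± 0.24 higher on day 10 than on day 0 with filed batches (adjusted p = 0.0212), but did not pass with table batches (0.107). On day 22 its difference from day 0 was 0.5 ± 0.24 (adjusted p = 0.124 and 0.294). By day 10, 1 of the 20 rose and 3 fell, beside 5.75 and 7.72% of all features. Between day 10 and day 22, 8 had an unadjusted p under 0.05 in limma's fit by filed batches and 5 by table batches. Of all features 26.6 and 18.3% did. In that interval, where 1.94% of all features passed both ways, none of the 20 did. With the replicate number as a block 1 did, Bcan (-0.86 ± 0.24, adjusted p = 0.045 and 0.0351).

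**Figure D4:**
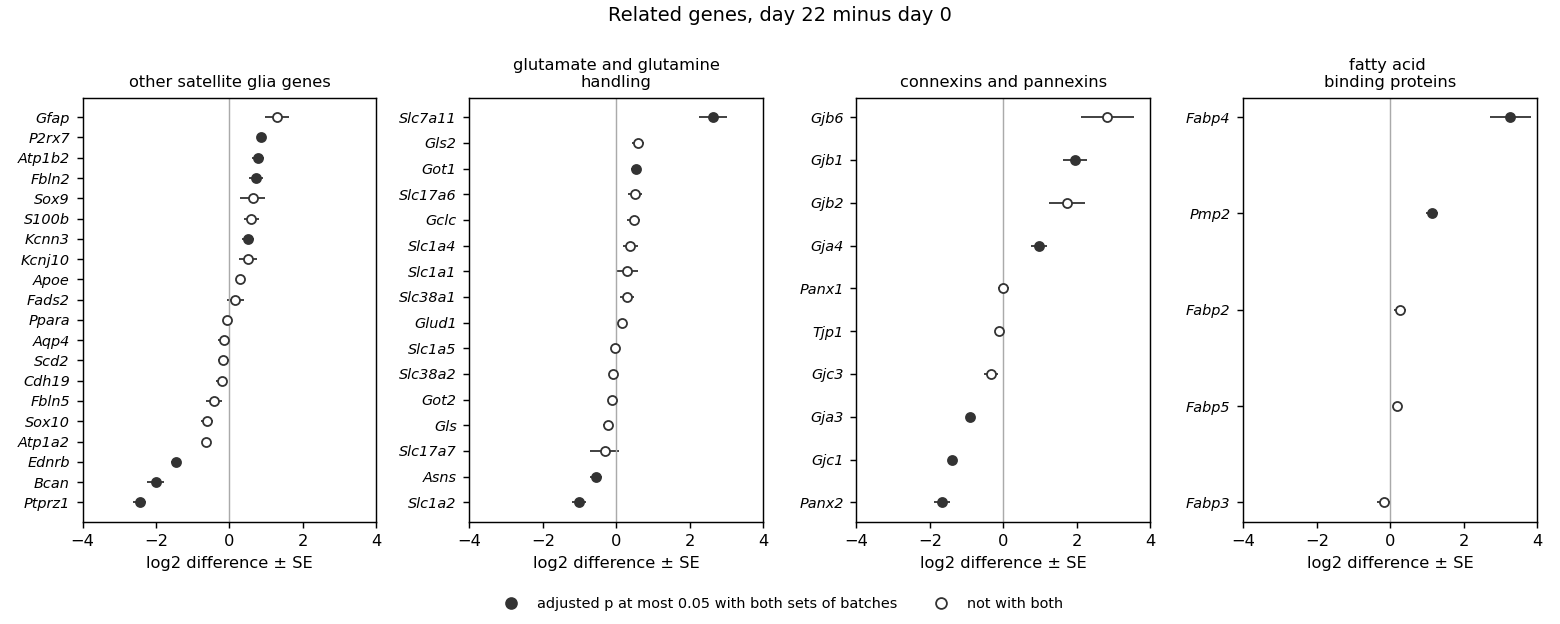
Log2 difference ± standard error with filed batches between day 22 and day 0 (x axes) for tested genes of 4 lists, ordered by size within each. Filled points passed an adjusted p of 0.05 with both sets of batches. Ptprz1, at -2.44, and Slc7a11, at 2.63, are at the ends of the first and second lists. Gja3, at -0.91, was well above background on 0 of 6 arrays of day 22, and Slc1a2, at -1.01, on 4 of 6. Both passed the filter through day 0 alone.

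Around Glul and Slc1a3 in glutamate handling, genes went both ways. Of 18 genes of glutamate and glutamine transport and metabolism, 16 passed the filter, and 2 rose and 2 fell by day 22 with both sets of batches, where 12.6% of all features rose and 18.6% fell. Slc7a11, the cystine and glutamate exchanger, was 2.63 ± 0.37 higher on day 22 than on day 0 (limma adjusted p = 0.000779 and 0.00426) and had already risen by day 10 (2.2 ± 0.37). Slc1a2, the glutamate transporter GLT-1 that astrocytes use beside Slc1a3, was -1.01 ± 0.19 on day 22 against day 0 (adjusted p = 0.00353 and 0.0173), and it was well above background on 6, 5 and 4 of 6 arrays on days 0, 10 and 22. It passed the filter through day 0 alone, which favours a fall, and some of its later levels are bounds. The other 2, named after their values were seen, were Got1, an aspartate aminotransferase (0.53 ± 0.12), and Asns, asparagine synthetase (-0.56 ± 0.17). Gls2, a glutaminase that runs against Glul, was 1.1 ± 0.16 higher on day 10 than on day 0 (adjusted p = 0.00205 and 0.0211). On day 22 it was 0.58 ± 0.16 above day 0 and passed with filed batches but not with table batches (0.0168 and 0.0867). Slc38a3 and Slc38a5, glutamine transporters, did not pass the filter. The list's median difference by day 22 was 0.22.

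Gja1 is 1 of a family in which members went both ways. Of 22 other genes of connexins, pannexins and the junction scaffold Tjp1, 11 passed the filter. With both sets of batches 2 rose and 4 fell by day 22, beside 12.6 and 18.6% of all features, and the median difference was -0.12. Gjb1, the connexin Cx32 of Schwann cells, was 1.96 ± 0.33 higher on day 22 than on day 0 (limma adjusted p = 0.00194 and 0.00967). Gjb6 and Gjb2, the connexins Cx30 and Cx26, were 2.83 ± 0.73 and 1.74 ± 0.49 higher and passed with filed batches (0.0139 and 0.02) but not with table batches (0.112 and 0.118). The other connexin that rose, Gja4, was 0.97 ± 0.22 higher. Among those that fell, also named after their values were seen, were Panx2 (-1.67 ± 0.22) and Gjc1 (-1.39 ± 0.08). Gja3 is counted as well, but it passed the filter through day 0 alone, which favours a fall. It was well above background on 6, 1 and 0 of 6 arrays of days 0, 10 and 22, so its later levels are bounds. Gjb6 was well above background on 4, 6 and 5 of 6, so it passed the filter through day 10 alone.

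Fabp7 was the member of its own family that fell. Of 9 other fatty acid binding protein genes 5 passed the filter, 2 rose by day 22 and none fell, where 12.6% of all features rose and 18.6% fell. In limma's fit none of the 5 had a difference below 0 at an unadjusted p under 0.05. Fabp4, the form of fat cells and macrophages, was 3.27 ± 0.56 higher on day 22 than on day 0 (adjusted p = 0.00209 and 0.0129). Pmp2, the form of peripheral myelin, was 1.14 ± 0.17 higher (0.00118 and 0.0203), and Fabp3 was at -0.17 ± 0.19. Immature Schwann cell genes, beside which Fabp7 is often named, fell in 5 of 10 cases with both sets of batches by day 22, and none was higher at an unadjusted p under 0.05 in limma's fit. Cdh2, N-cadherin, differed by -1.29 ± 0.15, Ncam1 by -1.05 ± 0.1 and Erbb3 by -0.93 ± 0.17.

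Among markers of astrocytes and oligodendrocytes, which share many genes with satellite glia, 7 of 10 passed the filter, of which Gfap, Aqp4 and Slc1a2 also stand in lists above, as Gjb1 does in the lists of connexins and Schwann myelin. Of these 1 rose and 2 fell by day 22 with both sets of batches, beside 12.6 and 18.6% of all features. One of those that fell was Slc1a2, which passed the filter through day 0 alone. Aldh1l1, a folate enzyme used to mark astrocytes, was 2.51 ± 0.17 higher on day 22 than on day 0 (limma adjusted p = 3.12e-05 and 0.000172). Gfap was 1.29 ± 0.33 higher with an adjusted p of 0.0134, but 0.0533 with table batches. The oligodendrocyte genes Olig2 and Opalin were well above background on 0 of 18 arrays. Olig1 was on 1, 2 and 1 of 6 arrays of days 0, 10 and 22.

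The genes whose level followed each member most closely over the 18 arrays, by Pearson's r among 14542 symbols, differed between the 4. Nearest to Fabp7 were Erp29 (r = 0.947), Golm2 (0.923), Slc44a5 (0.905), Klhl9 (0.905) and Cdh2 (0.901). Nearest to Glul were Clu (0.94), Gstt1 (0.93), Tmem141 (0.928), Slc22a18 (0.926) and Gstm1 (0.924). Nearest to Slc1a3 were A2m (0.954), Scarf2 (0.94), Il11ra1 (0.934), Thbd (0.931) and Lum (0.931). Nearest to Gja1 were Il1r1 (0.949), Ripk3 (0.938), Emilin2 (0.933), Ms4a4d (0.92) and Vdr (0.917). No gene was named for 2 members.

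Some of these neighbours moved much more than the member they followed. Slc44a5, a choline transporter-like protein, differed by -3.21 ± 0.24 between day 22 and day 0 (limma adjusted p = 3.96e-05 and 0.00157), where Fabp7 differed by -1.91. Clu, the secreted chaperone clusterin, was 2.79 ± 0.31 higher (adjusted p = 0.000232 and 0.00118). Il1r1, an interleukin 1 receptor, was 1.45 ± 0.26 higher (0.00237 and 0.00309), close to Gja1 in size. Over the deviations from the day means, the nearest were Gbp5 (r = 0.887), Rhod (0.866) and Pgr (0.849) to Fabp7, and Aifm3 (0.933), Prr36 (0.897) and Zfp92 (0.892) to Glul. To Slc1a3 they were Pdgfra (0.948), Pear1 (0.925) and Tgfbi (0.923), and to Gja1 Il1r1 (0.901), Osr1 (0.886) and Rnf144a (0.863). Genes near a member within days did not all share its course between days, though Il1r1 rose as Gja1 did. By day 22 Gbp5 (2.2 ± 0.27) and Rhod (0.98 ± 0.15) rose where Fabp7 fell. Prr36 (-2.28 ± 0.2) and Zfp92 (-1.61 ± 0.34) fell where Glul rose. Pdgfra, a receptor that marks fibroblasts, was 1.62 ± 0.4 higher on day 22 than on day 0 with filed batches (0.0119) and did not pass with table batches (0.109). Il1r1 was the one gene near the same member, Gja1, in both rankings.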

How the data were processed

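Each of 18 samples was measured on 1 one-colour Cy3 Agilent array. Spot intensity came from the authors' Agilent Feature Extraction run, version 10.7.1.1 per the file headers and 10.7.1 in the submitters' processing notes. That software also subtracted background and set the scores of 0 and 1 that mark spots as well above background, saturated or outlying, per the file headers. The array's probes were designed on mm9, per the file headers. A further file deposited by the authors holds processed intensity values on a linear scale with the same median, 33.68, in every column. Against its columns, each array file had a Spearman correlation of at least 0.9999 with a single column and at most 0.975 with the rest. For 12 arrays that column carries the name of a different sample from the same day.

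The level of a probe was its processed intensity as log2, less the array's 75th percentile (584.1 to 746.7), with outlier spots (93 to 181 per array) left out and the spots of a probe averaged. A probe had to be well above background on every array of a day, for 1 or more days, which kept 30431 of 55681. Probes were named by RefSeq accession, unversioned, and the brightest stood for each gene. After averaging the 2 arrays of each batch and day, 9 values entered limma 3.58.1 (R 4.3.3, with data.table at version 1.17.8), adjusted by Benjamini-Hochberg over 22854 features. Nothing in the labels says that the 2 arrays came from separate cultures.

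Some genes of the lists are counted but not reported here by name. Named genes were otherwise the members, the 3 of each list with the largest change by day 22 past the threshold, and those most like a member (5 over arrays, 3 over deviations). The members and lists were chosen with earlier results of these data known. In the labels, a replicate number stands for a shared batch. Deviations of same-numbered samples correlated at -0.13 to 0.37, 6 of 9 above 0.1, or at -0.08 to 0.46, 8 of 9, with table batches. Alternatives were the replicate or slide as a block, quantile and normexp settings (offset 50, on the median signal, since the files hold no mean signal), no filter, the authors' values, and leaving out batches or arrays. On simulated data of 22854 features, the fit recovered 68% of 2-fold changes (75 features) between days 10 and 0, with 8 false calls. The simulated batches were independent, had the spread of filed batches and held no slides or shared replicates. Far fewer features changed in them than were called here, so these values need not hold for the real data.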

Additional observations from a re-analysis of the deposited data

Results flagged for a closer look

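Glul on day 22 had 1 array far from the other 5, at 3.24, where the next was at 2.12, a gap of 0.818 of the range of the day. It was 1 of 12 groups checked, and chance alone marks about 1 in 20. The array is array 1 of batch 1, on slide 1. On it the Schwann myelin mean was 3.77, the lowest of day 22, the fibroblast mean was 5.3 and the macrophage mean 4.43, the highest of the day, and Slc1a3 (-0.52) and Gja1 (-0.94) were also at their highest. The means of the other satellite glia genes (1.78) and the immature Schwann genes (2.52) were likewise the lowest of day 22 on that array. Without it, the difference of Glul between day 22 and day 0 was 0.75 (limma adjusted p = 0.00108), and the contrast of the second interval with the first passed (-0.9, adjusted p = 0.0452). The part of other cells in it was not tested.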

How the results depend on the processing

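Over 53 alternatives, all 4 members kept their direction between day 22 and day 0, and between day 10 and day 0. With the replicate number as a block, no call of a member changed (Fabp7 between day 22 and day 0 -1.91, adjusted p = 0.00178). With table batches, the day 10 difference of Slc1a3 was 2.12 and did not pass, with the block (adjusted p = 0.0595) or without. Nor did it pass with the authors' values (2.16), normexp (0.83) or dim values raised with those batches (1.66). Slide 1 alone lost the call of Fabp7 on day 10 (-1.49) and day 22 (-1.98), and of Glul (0.88) and Slc1a3 (2.89) on day 10. Slide 2 alone lost Fabp7 (-1.14 and -1.86), Glul (0.64 on each day), Slc1a3 (2.41 and 2.78) and Gja1 on day 22 (1.05). These fits have 8 arrays each. First technical arrays alone lost Fabp7 (-1.55), Glul (0.76) and Slc1a3 (1.66) on day 10 and Slc1a3 (2.56) and Gja1 (1.2) on day 22, and second arrays alone lost Fabp7 (-1.32) and Slc1a3 (2.59) on day 10 and Slc1a3 (2.98) on day 22. The slide as a block made Gja1 pass in both intervals (0.64 and 0.78). Some differences that did not pass changed sign. These were that of Glul between day 22 and day 10 (-0.01 in slide 2, -0.05 in second arrays), and the interval contrast of Gja1 (0.02 with normexp, 0.14 with the slide block, 0.42 in slide 1, 0.15 in second arrays). The cause was not tested.

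Over 36 fits that left out a batch or an array, the values and the number that passed were as follows. Between day 10 and day 0 they were -1.74 to -1.08 for Fabp7 (32), 0.71 to 0.94 for Glul (30), 1.2 to 2.87 for Slc1a3 (26) and 0.44 to 0.91 for Gja1 (1, without batch 1 of day 22). Between day 22 and day 0 they were -2.21 to -1.55 for Fabp7 (36), 0.74 to 1.17 for Glul (36), 1.85 to 3.52 for Slc1a3 (33) and 0.88 to 1.61 for Gja1 (34). Between day 22 and day 10 that of Glul was -0.09 to 0.34 (0). The interval contrast was -0.91 to -0.48 for Glul (1) and -0.5 to 0.44 for Gja1 (0). Signal over background limits Slc1a3 on day 0. The fits without a table batch or a single array, those with dim values raised, and that of the authors' values in filed batches were chosen after seeing the data.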
